A study of Rattus norvegicus with 17 samples.

Results

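The nuclear genes for the subunits of oxidative phosphorylation were described across rat brain cultures that carried α-synuclein A53T or an empty vector and were given FK506 or its solvent. They were taken by symbol (Nduf, Sdh, Uqcr, Cyc1, Cox4 to Cox8 and Atp5 genes), which gave 75 of the 11247 gene labels measured. By complex there were 32 genes of complex I, 4 of complex II, 9 of complex III, 14 of complex IV and 16 of complex V. Ndufa4 and Ndufa4l2 were counted with complex IV. Atp5s and Atp5sl, whose current names are Dmac2l and Dmac2, were kept with complex V by their older symbols alone. Those current names are not ATP synthase names, so complex V counts may include genes that are not its subunits. All 75 passed the minimum mean for testing.

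In oxidative phosphorylation, complexes I and II pass electrons from NADH and succinate to ubiquinone, complex III passes them on to cytochrome c, and complex IV reduces oxygen. Complexes I, III and IV pump protons across the inner mitochondrial membrane, and complex V, the ATP synthase, uses that gradient to make ATP. Most subunits are encoded in the nucleus and a few in mitochondrial DNA, and neurons draw most of their ATP from this pathway. The subunits encoded by mitochondrial DNA were not analysed here.

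The libraries came from rat primary cultures of cerebral cortex, labelled as glutamatergic neurons and astrocytes. The vector groups carried an empty vector and the A53T groups carried the A53T variant of α-synuclein, a protein known for its deposits in Parkinson's disease. Each genotype was given DMSO, FK506 at 0.2 µM or FK506 at 2.0 µM, doses called sub-saturating and saturating. FK506, an immunosuppressant, inhibits the phosphatase calcineurin through the protein FKBP12. There were 3 libraries in each group and 2 in A53T in DMSO. The sources used here do not give the promoter or cell type that drove the transgene. Nothing said that the libraries of a group were separate cultures, so p-values measure only how these libraries vary, which may be technical variation.

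Deposited totals ran from 15091428 to 18335540 normalized counts, with raw depth unknown. The 3 libraries of A53T at 0.2 µM differed from each other by 0.995 to 1.05 times the sampling noise, against at least 1.48 times in every other group. This noise was computed as if normalized counts were reads, which could not be checked. They were averaged and counted as 1 sample, which left 15 samples in the fit, and the fit gives this single sample the spread of the other groups. Markers matched the label: 9 pan-neuronal markers summed to 48495 to 52515 normalized counts in vector in DMSO, 7 glutamatergic markers to 10757 to 12256, and 8 astrocyte markers to 88673 to 91089. The cultures also held 5 GABAergic markers summing to 29632 to 33509, which the label does not name. In such bulk libraries, fewer cells of a type and less RNA per cell cannot be told apart.

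In 3 groups a single library lay away from the rest, with higher subunit genes than in the other 2 libraries. These were the first replicate of vector at 0.2 µM, the second of vector at 2.0 µM and the first of A53T at 2.0 µM. Relative to the mean of vector in DMSO, the median subunit gene was at -0.15 on the log2 scale in the first of these, against -0.56 and -0.54 in its group. It was at -0.08 in the second, against -0.36 and -0.41, and at 0.33 in the third, against -0.06 and -0.19. The median of 76 cytosolic ribosomal protein genes moved with it, at 0.09 against -0.37 and -0.32, at 0.53 against 0.18 and 0.12, and at 0.94 against 0.39 and 0.35. The part of this shared movement in the results below was not tested.

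Across groups the level of the subunit genes had a wide range. They made up 2.50 to 2.70% of all normalized counts in vector in DMSO, 2.04 to 2.45% in vector at 0.2 µM, and 2.12 to 2.49% in vector at 2.0 µM. With A53T they made up 2.20 to 2.26% in DMSO, 1.04 to 1.05% at 0.2 µM, and 2.39 to 3.01% at 2.0 µM. A53T at 0.2 µM lay below every other library, and its median subunit gene was at -1.69, -1.73 and -1.72 relative to vector in DMSO. For the 4 genes of complex II alone the medians there were -0.88, -0.89 and -0.94.

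**Figure D1:**
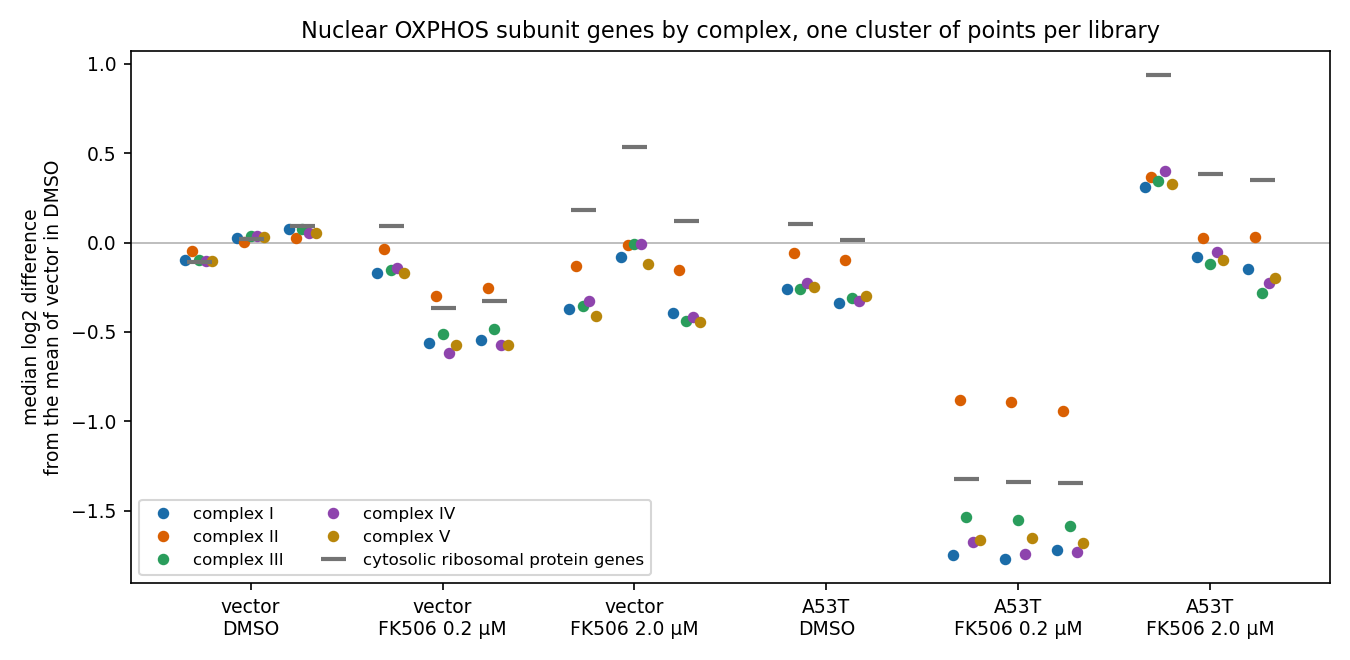
Median log2 difference of each complex's subunit genes from the mean of the vector libraries in DMSO (vertical axis) in each of the 17 libraries, by genotype and FK506 dose. Each cluster of points is 1 library, colours are complexes and grey bars are the median of 76 cytosolic ribosomal protein genes; the 3 libraries of A53T at 0.2 µM lie lowest, with complex II at -0.88 to -0.94.

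Within groups the subunit genes moved as a block. For each gene, the deviation of each library from its group mean was correlated with the median deviation of the other members over 14 libraries, leaving out the 3 near-identical ones. The median correlation of the 75 members was 0.985, and 65 of them (86.7%) were above 0.9. Among the other 11172 genes the median was 0.04 and 13.6% were above 0.9. The same quantity was 0.990 for cytosolic and 0.955 for mitochondrial ribosomal protein genes. The points share libraries, and include the 3 libraries that lay away from their groups, so these correlations are a description.

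A few members were out of step, and they are named here although Sdha, Ndufa10l1 and Cox6b2 were chosen after their values were seen. Ndufs1, the largest iron-sulfur subunit of complex I, had a correlation of -0.90, Sdha, the flavoprotein of succinate dehydrogenase, -0.77, and Uqcrc2, a core protein of complex III, -0.52. Ndufa10l1 was at 0.03 and Cox6b2 at 0.53, both at low levels with means of 193 and 12.8 normalized counts over the libraries. Ndufa10l1 is a near copy of Ndufa10, so reads may be split between the pair. Atp5a1, the α subunit in the catalytic head of ATP synthase, was at 0.63. In A53T at 0.2 µM against A53T in DMSO, where the median member was at -1.40, the log2 difference was 0.19 ± 0.11 (SE) for Ndufs1, -0.15 ± 0.07 for Sdha and -0.37 ± 0.08 for Uqcrc2.

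**Figure D2:**
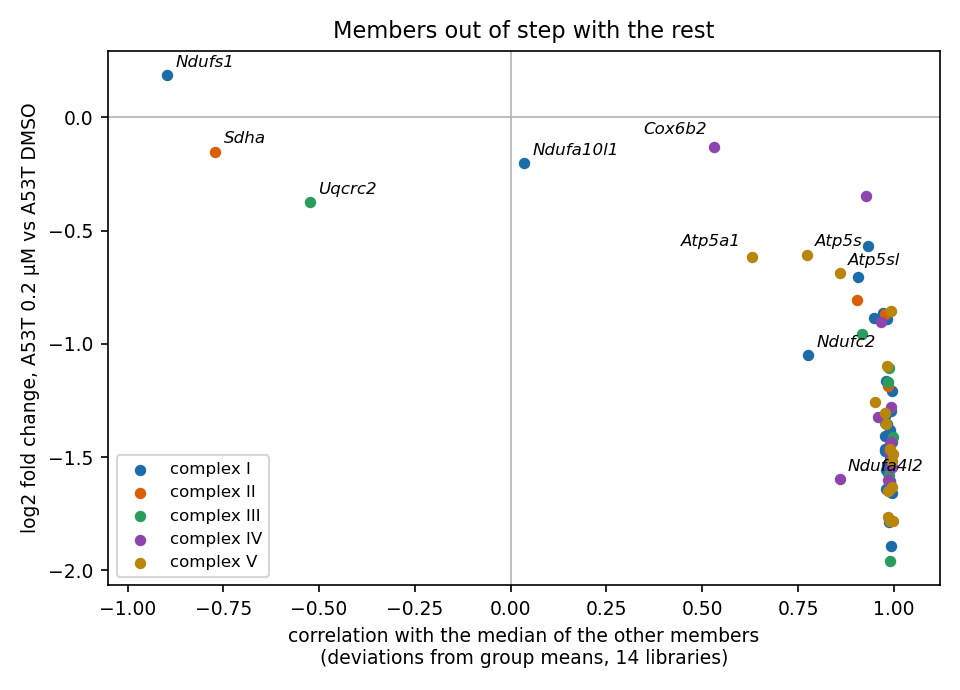
Each point is 1 of 75 subunit genes, coloured by complex. The horizontal axis gives the correlation of its within-group deviations with the median of the other members over 14 libraries, and the vertical axis gives its log2 fold change between A53T at 0.2 µM and A53T in DMSO. Most genes lie beyond 0.9 and between -0.5 and -2, and the labelled genes, with Ndufs1 at -0.90 and 0.19, lie apart from them.

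Since most members moved as a block, the sequences before their starts were searched for motifs of factors known to act on respiratory genes. RefSeq promoters of the build GRCr8 (250 bases before to 50 after the start) were found for 64 of the 75 members, with 59 members matched by symbol and 16 by synonym. Both strands were searched. The NRF1 motif, whose matches appear in capitals in the Ndufa11, Uqcrc1, Atp5i and Sdha sequences, was in 14 of 64 members (21.9%), against 6.09% of 19005 protein-coding promoters. The ETS motif CCGGAAG, bound by GABPA, was in 18 (28.1%) against 11.2%, and the YY1 motif AANATGGCG in 15 (23.4%) against 4%. The Sp1 motif GGGCGG was in 25 (39.1%) against 43.1%, and the CRE motif TGACGTCA in 4 (6.25%) against 2.22%. Of 12 complex IV promoters 0 held the NRF1 or the YY1 motif, and 4 held the ETS motif. The 19005 promoters include genes that were not among the 11247 measured here. The shares therefore do not compare members with measured genes alone. A match is a description of letters, not a binding site or a cause.

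The 150 bases before the start, 5′ to 3′ on the gene's strand, are shown for 4 members that moved in step (Ndufa11, Uqcrc1, Atp5i and Cox8a), for Sdha, Ndufs1 and Uqcrc2, which did not, and for Cox6a2, which had the largest fall in A53T in DMSO. Capitals mark matches to the NRF1, ETS, YY1 or CRE motif on either strand that lie wholly within the stretch, and Sp1 matches are not marked. The sequences are from RefSeq GRCr8: Ndufa11 at chr9:1637464-1637613 (+), Uqcrc1 at chr8:118468073-118468222 (+), Atp5i at chr14:1464710-1464859 (+), Cox8a at chr1:213833624-213833773 (-), Sdha at chr1:30764403-30764552 (+), Ndufs1 at chr9:72073606-72073755 (-), Uqcrc2 at chr1:184599090-184599239 (+) and Cox6a2 at chr1:192219717-192219866 (-).
Ndufa11: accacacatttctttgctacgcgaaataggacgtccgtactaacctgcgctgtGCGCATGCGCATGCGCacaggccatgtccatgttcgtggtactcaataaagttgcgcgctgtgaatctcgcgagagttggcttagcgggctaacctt
Uqcrc1: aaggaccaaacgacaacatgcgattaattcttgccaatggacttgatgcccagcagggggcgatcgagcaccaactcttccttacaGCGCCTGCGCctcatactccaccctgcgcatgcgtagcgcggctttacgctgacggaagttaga
Atp5i: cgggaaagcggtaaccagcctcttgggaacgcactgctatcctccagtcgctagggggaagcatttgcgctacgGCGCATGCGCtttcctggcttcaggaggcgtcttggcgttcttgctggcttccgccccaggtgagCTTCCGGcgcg
Cox8a: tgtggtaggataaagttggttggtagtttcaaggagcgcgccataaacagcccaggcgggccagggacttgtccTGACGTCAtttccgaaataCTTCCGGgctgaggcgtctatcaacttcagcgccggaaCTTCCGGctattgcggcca
Sdha: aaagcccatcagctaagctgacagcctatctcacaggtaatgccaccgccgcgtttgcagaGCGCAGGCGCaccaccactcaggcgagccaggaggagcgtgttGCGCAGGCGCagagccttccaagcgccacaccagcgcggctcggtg
Ndufs1: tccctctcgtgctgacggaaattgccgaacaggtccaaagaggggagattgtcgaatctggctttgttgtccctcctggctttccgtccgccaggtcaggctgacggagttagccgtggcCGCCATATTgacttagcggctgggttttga
Uqcrc2: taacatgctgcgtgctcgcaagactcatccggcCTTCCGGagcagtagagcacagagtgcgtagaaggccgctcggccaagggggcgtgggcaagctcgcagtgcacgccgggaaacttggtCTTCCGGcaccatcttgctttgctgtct
Cox6a2: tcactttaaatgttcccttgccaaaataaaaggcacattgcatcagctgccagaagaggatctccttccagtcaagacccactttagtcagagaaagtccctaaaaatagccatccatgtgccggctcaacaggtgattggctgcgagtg
The run of capitals in Ndufa11 is a pair of overlapping NRF1 matches, and Sdha, which was out of step, holds NRF1 matches as well. Cox6a2 holds none of the marked motifs in this stretch. No set rule chose the 4 in-step members shown, each of which holds a marked match. Other members, such as Ndufb3, Ndufb5, Cox7b and Cox7c, had no match to any searched motif in their promoters.

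The genes are described next by complex, each first by its deposited values and then by its log2 fold change, on the log2(value + 1) scale, with limma and Benjamini-Hochberg adjusted p-values over all 11247 genes. Levels of different genes are not compared, since transcript lengths were not used.

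In complex I, the matrix arm takes electrons from NADH. Ndufv1 was at 6579, 7251 and 7268 normalized counts in vector libraries in DMSO, 5988, 4998 and 4914 at 0.2 µM and 4851, 6007 and 4526 at 2.0 µM. With A53T, Ndufv1 was at 4943 and 4773 in DMSO, 2153, 2207 and 2135 at 0.2 µM and 6792, 5282 and 5057 at 2.0 µM. Ndufv1, which binds NADH and FMN, was lower in all 5 other groups' libraries than in replicates 2 and 3 of vector in DMSO, and lowest in A53T at 0.2 µM. It fell in A53T in DMSO against vector in DMSO by a log2 difference of -0.53 ± 0.14 (SE, adjusted p = 0.0226), a call that ended without replicate 2 or 3 of vector in DMSO or either A53T library in DMSO. In vector cultures it fell at 2.0 µM (-0.46 ± 0.12, adjusted p = 0.00772), and in A53T cultures it fell at 0.2 µM (-1.17 ± 0.19, adjusted p = 0.000215).

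Ndufs1, with Ndufs8, carries part of the iron-sulfur chain that leads from NADH to ubiquinone. Ndufs1 was at 2684, 2665 and 2694 normalized counts in vector libraries in DMSO, 2286, 2535 and 2469.8 at 0.2 µM and 1997, 1763 and 1846 at 2.0 µM. With A53T, Ndufs1 was at 2253 and 2307 in DMSO, 2687, 2602 and 2492 at 0.2 µM and 1636, 1909.9 and 2012 at 2.0 µM. Its lowest libraries were those at 2.0 µM in both genotypes, and A53T at 0.2 µM lay close to vector in DMSO. Ndufs1 fell at 2.0 µM against DMSO in vector cultures (-0.52 ± 0.07 SE, adjusted p = 9.85e-05) and in A53T cultures (-0.30 ± 0.08 SE, adjusted p = 0.0141). The A53T call ended when either A53T library in DMSO was left out, with values from -0.37 to -0.22 over the left-out libraries.

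Ndufs8 was at 2267, 2415 and 2557 normalized counts in vector libraries in DMSO, 2071, 1551 and 1646 at 0.2 µM and 1899.7, 2566 and 1894 at 2.0 µM. With A53T, Ndufs8 was at 1838 and 1815 in DMSO, 646, 671 and 656 at 0.2 µM and 3171, 2220.1 and 2189.6 at 2.0 µM. Ndufs8, an iron-sulfur subunit, passed only in A53T at 0.2 µM among the 8 comparisons, where it fell by 1.47 ± 0.23 (SE, adjusted p = 0.000204) on the log2 scale. All 3 of these A53T libraries lay far below every other library.

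The remaining complex I genes chosen by their changes are supernumerary subunits, which surround the core. Ndufb7 was at 3374, 3776 and 4136 normalized counts in vector libraries in DMSO, 3093, 2088 and 2156 at 0.2 µM and 2310.3, 3386 and 2219 at 2.0 µM. With A53T, Ndufb7 was at 2604 and 2532 in DMSO, 679, 705 and 692 at 0.2 µM and 5103, 3076 and 2687 at 2.0 µM. Ndufb7, a subunit on the intermembrane-space side, had the largest fall of complex I in A53T at 0.2 µM (-1.89 ± 0.34 SE, adjusted p = 0.000458), with no overlap with A53T in DMSO. Ndufb9 was at 5526, 6062 and 6612 normalized counts in vector libraries in DMSO, 4872, 3623 and 3723 at 0.2 µM and 3984, 5243 and 3840.3 at 2.0 µM. With A53T, Ndufb9 was at 4557 and 4452 in DMSO, 1453, 1483 and 1499 at 0.2 µM and 6872, 4736 and 4268 at 2.0 µM. Ndufb9, of the membrane arm, was lower in all libraries at 0.2 and 2.0 µM than in vector in DMSO, save replicate 1 of A53T at 2.0 µM.

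Ndufb4 was at 4326, 4621 and 4737 normalized counts in vector libraries in DMSO, 4194, 3069.9 and 2933 at 0.2 µM and 3131, 3898 and 3092 at 2.0 µM. With A53T, Ndufb4 was at 3489 and 3263 in DMSO, 1322, 1312 and 1258 at 0.2 µM and 6309, 4575 and 4132 at 2.0 µM. Ndufc2 was at 2593, 3094 and 2858 normalized counts in vector libraries in DMSO, 2798, 2045 and 2131 at 0.2 µM and 2236, 2619 and 2218 at 2.0 µM. These membrane-arm subunits had A53T at 2.0 µM above vector at 2.0 µM without overlap. With A53T, Ndufc2 was at 2764 and 2528 in DMSO, 1235, 1324 and 1268 at 0.2 µM and 3595, 3652 and 3137 at 2.0 µM. Against vector at 2.0 µM, A53T at 2.0 µM was higher by 0.55 ± 0.12 (SE, adjusted p = 0.00632) for Ndufc2 and by 0.55 ± 0.16 (SE, adjusted p = 0.0286) for Ndufb4, and only the first call held whichever library was left out. The Ndufb4 call ended without replicate 1 or 3 of vector at 2.0 µM or replicate 1 of A53T at 2.0 µM, with values from 0.37 to 0.68. Ndufv3 was at 2576, 2618 and 2906 normalized counts in vector libraries in DMSO, 2529, 2122 and 2071 at 0.2 µM and 2733, 3361 and 2575 at 2.0 µM. With A53T, Ndufv3 was at 2412 and 2348 in DMSO, 1218, 1327 and 1319.9 at 0.2 µM and 3740.4, 2881 and 2942 at 2.0 µM. Ndufv3, a small flavoprotein subunit, was higher in all vector libraries at 2.0 µM than in all at 0.2 µM, by a narrow margin over replicate 1 at 0.2 µM.

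Complex II, succinate dehydrogenase, also belongs to the citric acid cycle and has no mitochondrially encoded subunit. Sdha was at 5573, 5579.5 and 5575 normalized counts in vector libraries in DMSO, 5514, 5483 and 5523 at 0.2 µM and 5408, 5093 and 5308 at 2.0 µM. With A53T, Sdha was at 5310.3 and 5284 in DMSO, 4899, 4703 and 4704 at 0.2 µM and 5182, 5487 and 5673 at 2.0 µM. The catalytic subunit Sdha stayed between 4703 and 5673 normalized counts in all 17 libraries, and did not pass in any of the 8 comparisons. In A53T at 0.2 µM against A53T in DMSO its value was -0.15 ± 0.07 (SE, adjusted p = 0.0632), with no overlap of the libraries.

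Sdhb was at 5282, 5406 and 5874 normalized counts in vector libraries in DMSO, 5312, 4227 and 4249 at 0.2 µM and 4624, 5723 and 4478 at 2.0 µM. With A53T, Sdhb was at 4741 and 4571 in DMSO, 2088, 2018 and 2037 at 0.2 µM and 7462, 5629.7 and 5468 at 2.0 µM. Sdhb, the iron-sulfur subunit, followed the block and fell in A53T at 0.2 µM (-1.18 ± 0.19 SE, adjusted p = 0.000241). Sdhc was at 4950.5, 5117 and 5289 normalized counts in vector libraries in DMSO, 4788, 4022 and 4098 at 0.2 µM and 4384, 4854 and 4359 at 2.0 µM. With A53T, Sdhc was at 4946 and 4719.6 in DMSO, 2724, 2655 and 2553 at 0.2 µM and 6310.4, 5204 and 5232 at 2.0 µM. Sdhc, a membrane anchor, fell there too (-0.87 ± 0.13 SE, adjusted p = 0.000133). Sdhd was at 3824, 4124 and 3916 normalized counts in vector libraries in DMSO, 4064, 3329 and 3458 at 0.2 µM and 3952, 4113 and 3791 at 2.0 µM. With A53T, Sdhd was at 3839 and 3778 in DMSO, 2187, 2205 and 2144 at 0.2 µM and 5411, 4808 and 4764 at 2.0 µM. Sdhd, the other anchor, was highest in the 3 libraries of A53T at 2.0 µM. It rose there against A53T in DMSO (0.39 ± 0.08 SE, adjusted p = 0.00412) and was higher than in vector at 2.0 µM (0.34 ± 0.08 SE, adjusted p = 0.00922), and both calls held whichever library was left out.

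**Figure D3:**
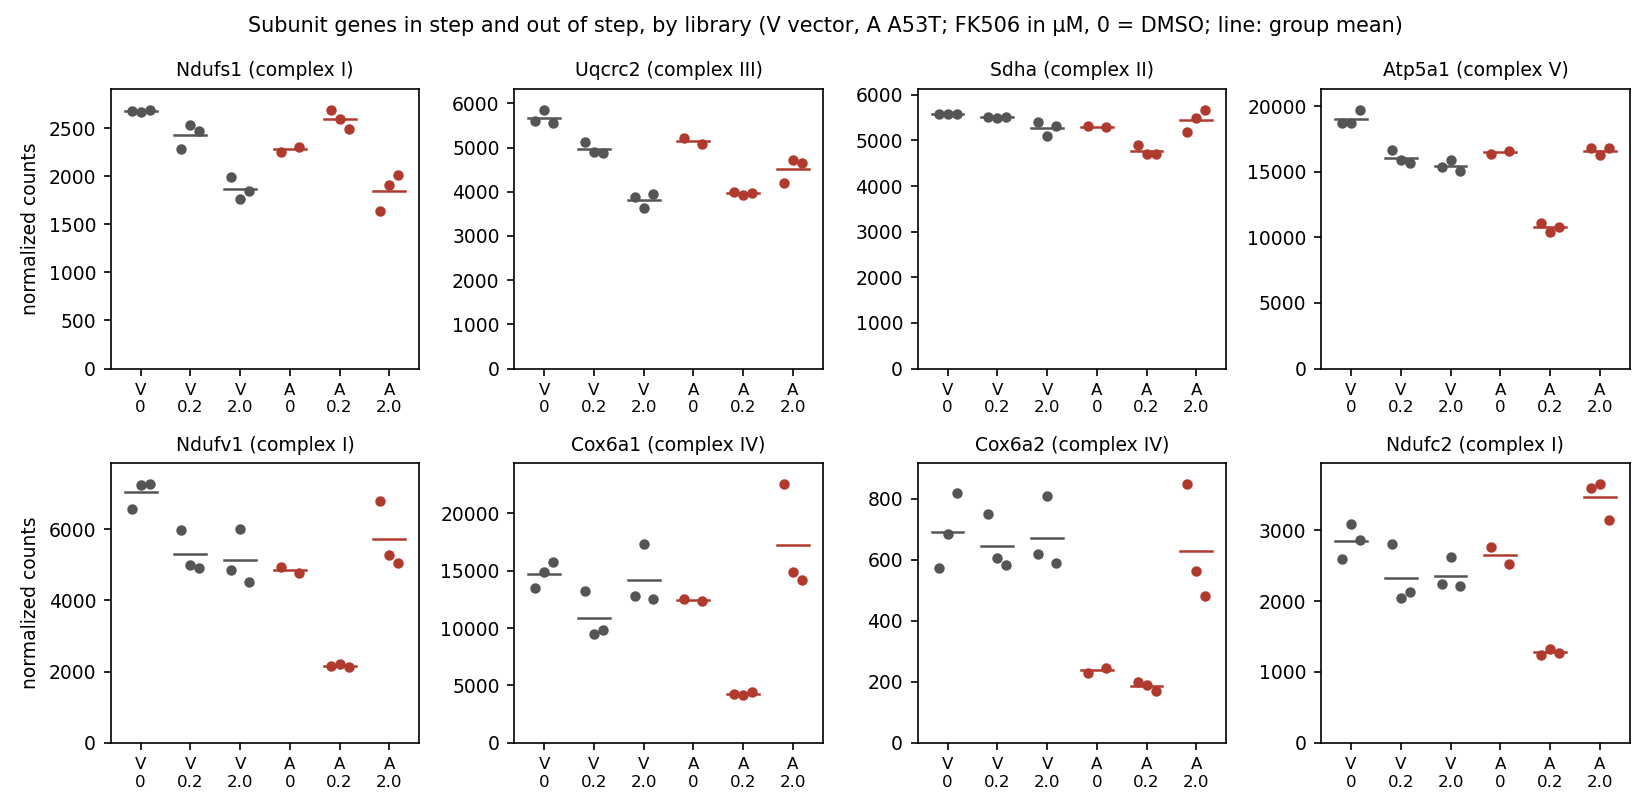
Normalized counts (vertical axes, from 0) of 8 subunit genes in each library, with vector libraries in grey, A53T libraries in red and group means as lines. Ndufv1, Cox6a1 and Ndufc2 are lowest in A53T at 0.2 µM, Ndufs1 is lowest at 2.0 µM in both genotypes, Uqcrc2 is lowest at 2.0 µM in vector and at 0.2 µM in A53T cultures, and Cox6a2 lies between 171 and 246 in A53T in DMSO and at 0.2 µM and at 481 or above elsewhere.

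In complex III, cytochrome bc1, Uqcrc2 was at 5596, 5856 and 5554 normalized counts in vector libraries in DMSO, 5115, 4904 and 4874 at 0.2 µM and 3886, 3622 and 3952 at 2.0 µM. With A53T, Uqcrc2 was at 5215 and 5076 in DMSO, 4005, 3925 and 3973 at 0.2 µM and 4196, 4727 and 4641 at 2.0 µM. Uqcrc2, a core protein, was below every vector library in DMSO in all vector libraries with FK506, and lowest at 2.0 µM. In vector cultures it fell at 2.0 µM against DMSO (-0.57 ± 0.06 SE, adjusted p = 4.42e-06) and against 0.2 µM (-0.38 ± 0.06 SE, adjusted p = 0.000303). A53T at 2.0 µM was higher than vector at 2.0 µM (0.24 ± 0.06 SE, adjusted p = 0.0107), a call that ended after quantile normalization and in a fit of those groups alone.

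Uqcrfs1 was at 4044, 4125 and 4424 normalized counts in vector libraries in DMSO, 3778, 3164 and 3104 at 0.2 µM and 3067, 3252 and 2977 at 2.0 µM. With A53T, Uqcrfs1 was at 3472 and 3370.1 in DMSO, 1718, 1799 and 1771 at 0.2 µM and 3934, 3425 and 3453 at 2.0 µM. Uqcrfs1, the Rieske iron-sulfur protein, was below the vector libraries in DMSO in all 14 other libraries. It fell at 2.0 µM in vector cultures (-0.44 ± 0.08 SE, adjusted p = 0.000617). Cyc1 was at 6170.5, 6748 and 6873 normalized counts in vector libraries in DMSO, 5568, 4618 and 4675 at 0.2 µM and 4740.5, 5607 and 4515 at 2.0 µM. With A53T, Cyc1 was at 5106 and 5052 in DMSO, 2270.1, 2243 and 2272 at 0.2 µM and 6688, 5586 and 5116 at 2.0 µM. Cyc1, cytochrome c1, which hands electrons to cytochrome c, fell at 2.0 µM in vector cultures as well (-0.42 ± 0.11 SE, adjusted p = 0.0063). Uqcrq was at 3551, 3904 and 4091 normalized counts in vector libraries in DMSO, 3405, 2047 and 2332 at 0.2 µM and 2999, 4365 and 2879 at 2.0 µM. With A53T, Uqcrq was at 3088 and 2983 in DMSO, 784, 787 and 769.6 at 0.2 µM and 5652, 3558 and 3089.6 at 2.0 µM. Uqcrq, a small subunit, had the largest fall of all 75 genes in A53T at 0.2 µM (-1.96 ± 0.34 SE, adjusted p = 0.000372).

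In complex IV, cytochrome c oxidase, Cox6a exists as a form found in most tissues, Cox6a1, and a form best known from heart and skeletal muscle, Cox6a2, which in brain has been described in parvalbumin interneurons. Cox6a2 was at 574, 684 and 819 normalized counts in vector libraries in DMSO, 751, 604 and 582 at 0.2 µM and 617, 809 and 589 at 2.0 µM. With A53T, Cox6a2 was at 229 and 246 in DMSO, 198, 190.1 and 171 at 0.2 µM and 848, 561 and 481 at 2.0 µM. The A53T libraries in DMSO and at 0.2 µM were lowest, and they did not overlap any other library. Cox6a2 fell in A53T in DMSO against vector in DMSO (-1.53 ± 0.22 SE, adjusted p = 0.000925) and rose at 2.0 µM against A53T in DMSO (1.36 ± 0.22 SE, adjusted p = 0.000743). These comparisons share the A53T libraries in DMSO, and both calls held whichever library was left out. Against vector at 2.0 µM, A53T at 2.0 µM was at -0.12 ± 0.20 (SE, adjusted p = 0.683).

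Markers of GABAergic neurons are given beside Cox6a2. The 5 measured markers, none at 0, summed to 29632 to 33509 in vector in DMSO and to 15534 to 15836 in A53T in DMSO, where 4 of 5 fell. In A53T at 2.0 µM, where Cox6a2 was higher, they summed to 10156 to 13089, and in vector at 2.0 µM, where Cox6a2 was at -0.04 ± 0.20 (SE, adjusted p = 0.878), to 11476 to 13437. Their part in the Cox6a2 result was not tested. Cox6a1 was at 13454, 14849 and 15781 normalized counts in vector libraries in DMSO, 13195, 9525 and 9823 at 0.2 µM and 12819, 17322 and 12534 at 2.0 µM. With A53T, Cox6a1 was at 12513 and 12328 in DMSO, 4219, 4149 and 4414 at 0.2 µM and 22570, 14889 and 14188 at 2.0 µM. Cox6a1 passed only in A53T at 0.2 µM among the 8 comparisons, where it fell (-1.54 ± 0.27 SE, adjusted p = 0.000361).

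Cox5a was at 7634, 8464 and 8781 normalized counts in vector libraries in DMSO, 6959.5, 5062 and 5256 at 0.2 µM and 6049, 7475 and 5814 at 2.0 µM. With A53T, Cox5a was at 6278 and 6031 in DMSO, 2241, 2323 and 2280 at 0.2 µM and 9163, 6854 and 6411 at 2.0 µM. Cox5a, a subunit on the matrix side, fell in vector at 0.2 µM (-0.54 ± 0.15 SE, adjusted p = 0.0246), and this call ended without replicate 2 or 3 of vector in DMSO or of vector at 0.2 µM. Cox7c was at 4520.3, 4956 and 5013 normalized counts in vector libraries in DMSO, 3862, 3006 and 3238 at 0.2 µM and 3566, 4335 and 3436 at 2.0 µM. With A53T, Cox7c was at 4249 and 3840.1 in DMSO, 1665, 1614 and 1557 at 0.2 µM and 5719, 4805 and 4083 at 2.0 µM. Cox7c, a small membrane subunit, was likewise lower in every vector library with FK506 than in vector in DMSO. Cox7a2 was at 4609.7, 5163 and 5164 normalized counts in vector libraries in DMSO, 4504, 3148 and 3376 at 0.2 µM and 4184, 5170 and 3949.6 at 2.0 µM. With A53T, Cox7a2 was at 4664 and 4258 in DMSO, 1622, 1531 and 1552 at 0.2 µM and 7715, 5327 and 4915 at 2.0 µM. Cox7a2, a small membrane subunit, passed in 1 of the 8 comparisons, A53T at 0.2 µM (-1.51 ± 0.25 SE, adjusted p = 0.000286).

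Cox7a2l was at 7416, 8224 and 8199 normalized counts in vector libraries in DMSO, 8962, 6751 and 7118 at 0.2 µM and 8573, 9681 and 8235 at 2.0 µM. With A53T, Cox7a2l was at 8361 and 7911 in DMSO, 4401, 4274 and 4353 at 0.2 µM and 12232, 10195 and 9649 at 2.0 µM. Cox7a2l, which joins complexes III and IV in supercomplexes, was at 0.04 ± 0.12 (SE, adjusted p = 0.875) in A53T in DMSO against vector in DMSO and fell in A53T at 0.2 µM (-0.91 ± 0.17 SE, adjusted p = 0.000524). Ndufa4 was at 11076, 12325 and 12142 normalized counts in vector libraries in DMSO, 11433, 8226 and 8304 at 0.2 µM and 9795, 11737 and 9431 at 2.0 µM. With A53T, Ndufa4 was at 10570 and 9928 in DMSO, 3725, 3725 and 3624 at 0.2 µM and 16566, 12629 and 11325 at 2.0 µM. Ndufa4, first assigned to complex I and since found in complex IV, passed in 1 of the 8 comparisons, A53T at 0.2 µM (-1.47 ± 0.22 SE, adjusted p = 0.000153).

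Ndufa4l2 was at 57.3, 57.1 and 60.1 normalized counts in vector libraries in DMSO, 61.5, 36.5 and 38.1 at 0.2 µM and 32.2, 46.2 and 26.3 at 2.0 µM. With A53T, Ndufa4l2 was at 55.6 and 63.7 in DMSO, 21.8, 19.0 and 16.2 at 0.2 µM and 63.4, 56.0 and 32.9 at 2.0 µM. Its paralog Ndufa4l2, known as a hypoxia-induced gene, was at low counts. It had the largest fall of the members in vector at 2.0 µM (-0.76 ± 0.28 SE, adjusted p = 0.0393), a call that ended after quantile normalization and when any library of vector in DMSO, replicate 1 or 3 of vector at 2.0 µM or either A53T library in DMSO was left out.

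In complex V, the ATP synthase, Atp5a1 was at 18698, 18698 and 19741 normalized counts in vector libraries in DMSO, 16704, 15875 and 15662 at 0.2 µM and 15361, 15882 and 15058 at 2.0 µM. With A53T, Atp5a1 was at 16378 and 16580 in DMSO, 11071, 10424 and 10787 at 0.2 µM and 16784, 16272 and 16826 at 2.0 µM. Atp5a1 encodes the α subunit of the catalytic head, now named Atp5f1a. All libraries outside vector in DMSO lay below the vector libraries in DMSO. It fell at 0.2 µM (-0.24 ± 0.05 SE, adjusted p = 0.00538) and at 2.0 µM (-0.30 ± 0.05 SE, adjusted p = 0.000229) in vector cultures and at 0.2 µM in A53T cultures (-0.61 ± 0.07 SE, adjusted p = 3.44e-05). Of these, the first call ended after quantile normalization.

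Atp5c1 was at 8187, 8892 and 8995 normalized counts in vector libraries in DMSO, 7906, 6319 and 6189.6 at 0.2 µM and 6059, 6908 and 6003 at 2.0 µM. With A53T, Atp5c1 was at 7219 and 6916 in DMSO, 3430.5, 3189 and 3270.3 at 0.2 µM and 9669, 7999.8 and 7559.9 at 2.0 µM. Atp5c1 encodes the γ subunit, the rotating stalk, and fell at 2.0 µM in vector cultures (-0.46 ± 0.11 SE, adjusted p = 0.00314). Atp5l was at 7654, 8934 and 8727 normalized counts in vector libraries in DMSO, 7015, 4883 and 5045 at 0.2 µM and 5503, 6634 and 5231 at 2.0 µM. With A53T, Atp5l was at 6978 and 6520 in DMSO, 2178, 2125 and 2146 at 0.2 µM and 10520, 7758 and 6706 at 2.0 µM. Atp5l encodes subunit g of the membrane part, and had the largest fall of the called members in vector at 0.2 µM (-0.60 ± 0.17 SE, adjusted p = 0.0268). That call ended without replicate 2 or 3 of vector in DMSO or of vector at 0.2 µM, with values from -0.76 to -0.50.

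Subunit c, which forms the proton-driven ring, is made from 3 genes that give the same mature protein. Atp5g1 was at 4857, 5377 and 5635 normalized counts in vector libraries in DMSO, 4560.3, 3380.1 and 3552 at 0.2 µM and 5292, 7034 and 5093 at 2.0 µM. With A53T, Atp5g1 was at 4624 and 4599.5 in DMSO, 1879, 1782 and 1753 at 0.2 µM and 9100.3, 6008 and 6026 at 2.0 µM. Atp5g2 was at 4327, 4858 and 4895 normalized counts in vector libraries in DMSO, 4312, 3496 and 3495 at 0.2 µM and 4088, 5032 and 3859.5 at 2.0 µM. Vector at 2.0 µM overlapped vector in DMSO for Atp5g1 and Atp5g2. With A53T, Atp5g2 was at 4334 and 4159 in DMSO, 1653, 1785 and 1716 at 0.2 µM and 5898, 4538 and 4513 at 2.0 µM. Atp5g3 was at 6273, 7266 and 7104 normalized counts in vector libraries in DMSO, 6029.8, 4525 and 4566 at 0.2 µM and 4608, 5238 and 4353 at 2.0 µM. For Atp5g3, all vector libraries at 2.0 µM lay below those in DMSO. With A53T, Atp5g3 was at 5853 and 5542 in DMSO, 2366, 2362 and 2419.5 at 0.2 µM and 7949, 6816 and 6016 at 2.0 µM. In vector cultures at 2.0 µM against DMSO, the log2 differences were 0.12 ± 0.17 (SE, adjusted p = 0.58) for Atp5g1, -0.12 ± 0.12 (SE, adjusted p = 0.437) for Atp5g2 and -0.54 ± 0.12 (SE, adjusted p = 0.00292) for Atp5g3. The difference between the genes was not tested. In A53T at 0.2 µM all 3 fell, with log2 differences of -1.35 ± 0.25, -1.30 ± 0.19 and -1.26 ± 0.18 (SE). Reads from near-identical copies, including processed pseudogenes, could be split in the counting of such small genes.

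The first comparison asked how A53T differed from vector in DMSO. The member that fell in every fit with a library left out was Cox6a2. By adjusted p, 5 of 75 members fell, among them Cox6a2, Ndufv1, Uqcrfs1 and Atp5a1, and 0 rose, where 8.19% of all genes fell. The direction was shared, with 73 of 75 members lower and a median of -0.28, against 0.01 over all genes. In 66 of 75 members both A53T libraries lay below all 3 vector libraries, against 30.3% of all genes. Complex medians were -0.29, -0.08, -0.28, -0.27 and -0.27 for complexes I to V.

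The count of 5 rested on single libraries of several groups. It was 16 without replicate 1 of A53T at 2.0 µM and 8 without replicate 1 of vector at 0.2 µM, 2 of the libraries that stood apart. It was 1 without either A53T library in DMSO or without replicate 3 of vector in DMSO, and 2 without its replicate 2. It was 3 without replicate 1 of vector in DMSO, replicate 2 of vector at 0.2 µM, replicate 1 or 3 of vector at 2.0 µM, or replicate 2 of A53T at 2.0 µM. The median of the cytosolic ribosomal protein genes was 0.06 in this comparison, and 0 of 76 passed by limma, with 0 at an unadjusted p below 0.05. GABAergic markers summed to 15534 to 15836 normalized counts in A53T against 29632 to 33509 in vector, with 4 of 5 called lower, and astrocyte markers to 75518 to 79097 against 88673 to 91089, with 2 of 8 called lower. Their part in the result was not tested.

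The second question was what FK506 did in vector cultures. At 0.2 µM, 18 of 75 members fell and 0 rose, where 10.6% of all genes fell, and the median was -0.41 against 0.00. Complex medians were -0.42, -0.19, -0.38, -0.45 and -0.44. All 75 members were lower, and in 55 the groups did not overlap, against 21.0% of all genes. Atp5a1 was the member called whichever library was left out.

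The count of 18 was 64 without replicate 1 of vector at 0.2 µM, 60 without replicate 1 of A53T at 2.0 µM, and 34 without replicate 2 of vector at 2.0 µM or replicate 3 of A53T at 2.0 µM. It was 1 without replicate 2 or 3 of vector at 0.2 µM or replicate 3 of vector in DMSO, 2 without replicate 2 of vector in DMSO, 9 without its replicate 1, and 10 without either A53T library in DMSO. Astrocyte markers, none of the 8 at 0, summed to 54692 to 59681 normalized counts at 0.2 µM against 88673 to 91089 in DMSO, with 4 called lower. GABAergic markers summed to 16556 to 18881 against 29632 to 33509, with 4 of 5 called lower, and pan-neuronal markers to 43033 to 43591 against 48495 to 52515. Of the 76 cytosolic ribosomal protein genes, 75 had negative values, with a median of -0.21, and 0 passed by limma, with 3 at an unadjusted p below 0.05. The part of these shifts in the result was not tested.

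At 2.0 µM the members that fell included several catalytic and core subunits. Among 25 of 75 that fell, 14 kept the call whichever library was left out. Named for that reason, these included Ndufs1, Ndufs3, Ndufs4 and Ndufv1 of complex I, Uqcrc2, Uqcrfs1 and Cyc1 of complex III, and Atp5a1, Atp5b, Atp5c1, Atp5g3, Atp5s and Atp5sl, counted with complex V. None of the members rose, and 23.8% of all genes fell. The median was -0.27 against 0.00 over all genes. Of the 7 core genes of complex I, 5 fell with a median of -0.46, and of its 25 supernumerary genes 7 fell with a median of -0.27. The difference between these lists was not tested.

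The count of 25 was 15 without replicate 1 or 3 of vector at 2.0 µM. Complex II had 0 of 4 members called and a median of -0.12. Astrocyte markers summed to 38158 to 39924 normalized counts in these libraries, GABAergic markers to 11476 to 13437 and pan-neuronal markers to 34024 to 35902. All were below vector in DMSO, with no marker at 0. Of 8 astrocyte markers 7 were called lower and 1 higher. Glutamatergic markers summed to 6217 to 7712 against 10757 to 12256 in vector in DMSO, with 2 of 7 called lower and 1 higher. The median of the cytosolic ribosomal protein genes was 0.27, with 16 of 76 higher and 1 lower. Over all genes 2635 of 11247 were called higher and 2672 lower. The share of these ribosomal genes called higher was near that of all genes. The part of these markers in the result was not tested.

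Between the doses in vector cultures, 2 members fell and 2 rose, where 33.7% of all genes changed. Ndufs1 (-0.38 ± 0.07 SE, adjusted p = 0.0021) and Uqcrc2 (-0.38 ± 0.06 SE, adjusted p = 0.000303) fell whichever library was left out. Atp5g1 (0.60 ± 0.17 SE, adjusted p = 0.0153) and Ndufv3 (0.36 ± 0.12 SE, adjusted p = 0.0321) rose, and both calls ended without replicate 2 or 3 of vector at 0.2 µM or replicate 2 of vector at 2.0 µM. The median was 0.13, and 0.27 without replicate 1 of vector at 0.2 µM, 0.05 and 0.06 without its replicates 2 and 3, 0.02 without replicate 2 of vector at 2.0 µM and 0.08 after quantile normalization. The cytosolic ribosomal protein genes had a median of 0.50 here, with 42 of 76 risen. The count of 4 was 13 without replicate 1 of vector at 0.2 µM, 10 without replicate 1 of A53T at 2.0 µM, and 2 without replicate 3 of vector at 0.2 µM. The comparisons of each dose with DMSO share the vector libraries in DMSO.

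**Figure D4:**
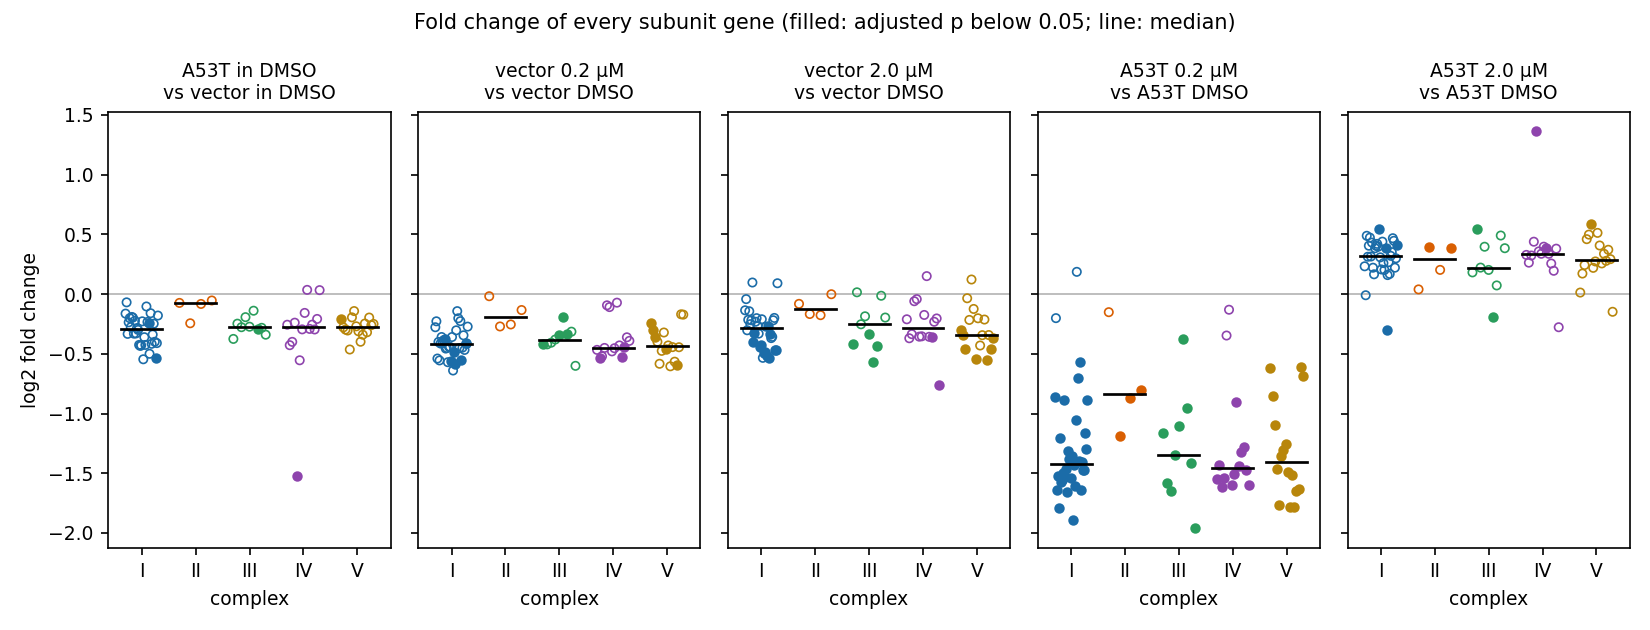
Log2 fold change (vertical axis) of every subunit gene by complex (horizontal axis) in 5 comparisons, with filled points for an adjusted p below 0.05 and lines for complex medians. A53T at 0.2 µM has 70 of 75 genes filled and below 0, and the other comparisons have medians from -0.41 to 0.32.

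In A53T cultures at 0.2 µM against A53T in DMSO, the subunit genes of all 5 complexes fell together. By adjusted p, 70 of 75 fell and 0 rose, where 34.2% of all genes fell and 33.6% rose, and the median was -1.40 against 0.00 over all genes. Complex medians were -1.42, -0.84, -1.35, -1.46 and -1.41, with 30 of 32, 3 of 4, 9 of 9, 12 of 14 and 16 of 16 genes fallen. The 5 that did not pass were Ndufs1, Ndufa10l1, Sdha, Cox6a2 and Cox6b2. Leaving out 1 library at a time kept the median between -1.43 and -1.37. These fits could not test the A53T side at 0.2 µM, since its near-identical libraries were never left out together.

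The A53T side at 0.2 µM is 1 sample, so its p-values rest on the spread of the other groups. The cytosolic ribosomal protein genes had a median of -1.41, with 74 of 76 fallen, and the mitochondrial ribosomal protein genes -1.02, with 63 of 65 fallen. Glutamatergic markers summed to 15162 to 15604 normalized counts, against 9892 to 10670 in A53T in DMSO, and astrocyte markers to 50979 to 51420 against 75518 to 79097. Each list includes markers that rose and markers that fell, and none was at 0. The part of these shifts in the result was not tested.

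At 2.0 µM in A53T cultures, 9 of 75 members rose and 2 fell, where 19.7% of all genes rose and 17.9% fell. Cox6a2, Atp5g1, Uqcr10, Ndufb4, Ndufv3, Sdhb, Sdhd, Cox7a2l and Ndufc2 rose, and Ndufs1 and Uqcrc2 fell. The median was 0.32 against 0.01 over all genes, with 70 of 75 members higher, and was 0.14 without replicate 1 of A53T at 2.0 µM. In 57 members all A53T libraries at 2.0 µM lay above both in DMSO, against 33.8% of all genes. Complex medians were 0.32, 0.30, 0.22, 0.34 and 0.29. Cox6a2 and Sdhd were the calls that held whichever library was left out, and the other 9 ended without either A53T library in DMSO.

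The count of 11 was 2 without either A53T library in DMSO, 4 without replicate 1 of A53T at 2.0 µM, 20 without replicate 1 of vector at 0.2 µM and 30 without replicate 3 of A53T at 2.0 µM. The cytosolic ribosomal protein genes had a median of 0.50, with 40 of 76 risen. Glutamatergic markers summed to 3729 to 5699 and astrocyte markers to 41503 to 46088, both below A53T in DMSO. The 7 oligodendrocyte-lineage markers summed to 4119 to 4226 against 2848 to 2863. Within the lists, 5 of 7 glutamatergic markers were called lower and 0 higher. Of 8 astrocyte markers 4 were called lower and 2 higher, and of the oligodendrocyte-lineage markers 4 higher and 2 lower. Their part in the result was not tested.

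With both genotypes at 2.0 µM, A53T had 10 of 75 members higher and 0 lower, where 9.88% of all genes were higher, with a median of 0.29 against 0.00. The median was 0.13 without replicate 1 of A53T at 2.0 µM. Atp5g3 (0.54 ± 0.12 SE, adjusted p = 0.00961), Ndufc2, Sdhd and Uqcrc2 were higher whichever library was left out. The others were Sdhc, Ndufs4, Atp5c1, Atp5s, Atp5l and Ndufb4. The count of 10 was 28 without replicate 3 of A53T at 2.0 µM, 21 without replicate 2 of vector at 2.0 µM, 20 without replicate 1 of vector at 0.2 µM, 5 without replicate 1 of either group at 2.0 µM, and 4 without replicate 3 of vector at 2.0 µM. The cytosolic ribosomal protein genes had a median of 0.27, with 1 of 76 higher by the test and 74 at positive values. Of the 8 astrocyte markers, 5 were higher and 2 lower, and they summed to 41503 to 46088 normalized counts with A53T against 38158 to 39924 in vector. Oligodendrocyte-lineage markers summed to 4119 to 4226 against 1550 to 1607, with 3 of 7 higher and 1 lower. Glutamatergic markers summed to 3729 to 5699 against 6217 to 7712, with 1 of 7 higher and 2 lower. The part of these shifts in the result was not tested.

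The difference between both responses to 2.0 µM was tested as an interaction, which takes the change in vector cultures from that in A53T cultures. It passed for 23 of 75 members, all with a more positive response with A53T, where 8.14% of all genes passed in that direction. All 75 members had positive values, with a median of 0.58 against 0.00 over all genes. The 23 were 10 of complex I, 1 of II, 4 of III, 2 of IV and 6 of V. Complex medians were 0.65, 0.38, 0.53, 0.60 and 0.65.

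Cox6a2 had the largest interaction (1.40 ± 0.30 SE, adjusted p = 0.00971), from -0.04 ± 0.20 in vector and 1.36 ± 0.22 in A53T cultures. Ndufb4 followed (0.99 ± 0.24 SE, adjusted p = 0.0174), from -0.44 ± 0.16 and 0.54 ± 0.18. Uqcrc2 fell in both genotypes, and by less with A53T (0.38 ± 0.08 SE, adjusted p = 0.0115), which no longer passed after quantile normalization. Ndufs1 fell in both, and its interaction did not pass (0.22 ± 0.11 SE, adjusted p = 0.187). For the cytosolic ribosomal protein genes the median interaction was 0.21, and 0 of 76 passed by limma, with 1 at an unadjusted p below 0.05. The interaction was called positive for 6 of 12 citric acid cycle genes (median 0.36) and 5 of 65 mitochondrial ribosomal protein genes (0.39). In that direction 8.14% of all genes were called, a share near that of the mitochondrial ribosomal protein genes. The interaction was also called positive for 5 of 37 assembly factors (0.32), and for 6 of 16 electron carrier and ubiquinone genes (0.39), with 1 negative. Of 8 astrocyte markers 4 were called positive and 1 negative, and of 5 GABAergic markers 3 positive. Their part in the result was not tested.

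None of the 23 calls held in every fit with a library left out. Without the unnumbered A53T library in DMSO 1 passed, and without the other A53T library in DMSO 4 passed. Without replicate 2 or 3 of vector in DMSO, or replicate 1 or 3 of vector at 2.0 µM, 9 passed. The count was 35 without replicate 1 of vector at 0.2 µM, 44 without replicate 2 of vector at 2.0 µM and 47 without replicate 3 of A53T at 2.0 µM. Of the 75 members, 74 kept a positive value in each of these fits.

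With all 3 outlying libraries left out together, counts were larger in 7 of the 8 comparisons by more than 1.5 times. Then 67 members fell in A53T in DMSO, 70 in vector at 0.2 µM and 65 in vector at 2.0 µM, and 36 rose and 3 fell between the doses in vector cultures. In A53T cultures 71 fell and 1 rose at 0.2 µM, and 31 rose and 3 fell at 2.0 µM, with a median of 0.14. A53T was higher than vector at 2.0 µM for 58 members, and the interaction passed for 70, with medians of 0.24 and 0.52. These libraries were picked for their deviation, so the larger counts are no independent support.

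**Figure D5:**
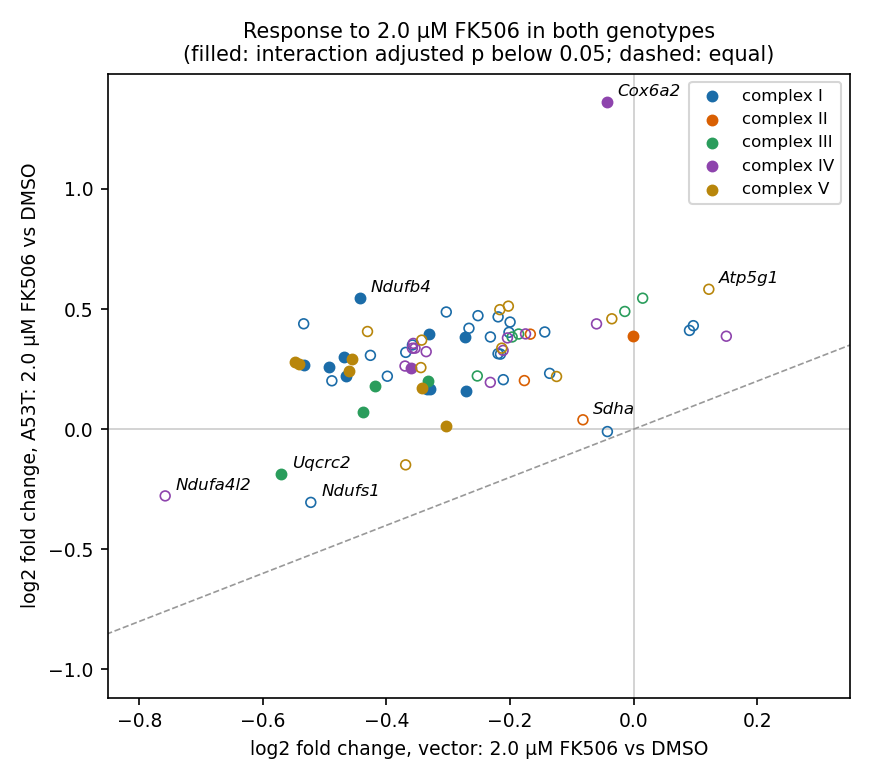
Log2 fold change of each of 75 subunit genes at 2.0 µM FK506 against DMSO in vector cultures (horizontal axis) and in A53T cultures (vertical axis), coloured by complex, with filled points for an interaction with an adjusted p below 0.05. All points lie above the dashed line of equal response, and Cox6a2, at -0.04 and 1.36, lies farthest from it.

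Genes that serve the complexes without being part of them were measured as well. Of 37 assembly factors, which build the complexes, 23 fell and 5 rose in A53T at 0.2 µM, with a median of -0.47, where 34.2% of all genes fell and 33.6% rose. Uqcc2, which helps make cytochrome b, fell by 1.72 ± 0.31 (SE, adjusted p = 0.00042) on the log2 scale, Coa3, a complex IV factor, by 1.53 ± 0.24 (SE, adjusted p = 0.000187), and Ecsit, a complex I factor, by 0.89 ± 0.18 (SE, adjusted p = 0.000853). At 2.0 µM in A53T cultures 15 of the 37 assembly factors rose and 1 fell, where 19.7% of all genes rose and 17.9% fell. Of 12 citric acid cycle genes, 7 fell and 2 rose in A53T at 0.2 µM, with a median of -0.33, and Mdh2, malate dehydrogenase, had -1.09 ± 0.15 (SE, adjusted p = 8.18e-05). Of 16 genes of electron carriers and ubiquinone synthesis, 10 fell and 1 rose at 0.2 µM, again beside 34.2% and 33.6% of all genes.

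Of 17 regulators of mitochondrial gene expression, 7 rose and 2 fell in A53T at 0.2 µM, where 33.6% of all genes rose and 34.2% fell. The share of regulators that rose was near that of all genes. Ppargc1a, the coactivator that drives mitochondrial biogenesis, was at a mean of 54.9 normalized counts in A53T in DMSO (2 libraries, 42.6 to 67.1) and 583 at 0.2 µM (562 to 604). It rose by 3.42 ± 0.61 (SE, adjusted p = 0.000421), and its relative Ppargc1b rose by 2.50 ± 0.23 (SE, adjusted p = 6.79e-06). Sp1, a general activator, rose by 1.44 ± 0.16 (SE, adjusted p = 2.13e-05), Gabpa, which binds the ETS motif, by 1.33 ± 0.29 (SE, adjusted p = 0.00153), and Tfb1m, a mitochondrial rRNA methyltransferase, by 0.74 ± 0.13 (SE, adjusted p = 0.000327). Nrf1 had 0.35 ± 0.21 (SE), and Tfam, which packages mitochondrial DNA and takes part in its transcription, had -0.45 ± 0.13 (SE). Ppargc1a, Gabpa, Nrf1 and Tfam were chosen after their values were seen.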

How the data were processed

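The series measured mRNA in 17 libraries, made with a stranded mRNA kit per the labels' protocols. The submitters' processing notes list FastQC, TopHat and HTSeq, with no versions, and the genome build rn6. The authors deposited gene counts that they had normalized, by a method not given in the sources used here, and these values were handled as a signal, as deposited. A count test was not used, because whole reads could not be recovered: at least 95% of low values were whole multiples of a step, at a tolerance of 0.1 step, in 6 of 17 libraries. Raw depth is therefore unknown and no counting interval is given.

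Values were taken to log2(value + 1). Genes with a mean of at least 1 were tested, and this kept all 11247. Samples were compared with limma 3.58.1 in R 4.3.3 in 1 fit of 15 samples with a variance trend and 9 residual degrees of freedom, for 8 comparisons, with Benjamini-Hochberg adjustment over all genes in each. A gene was called at an adjusted p below 0.05. The steps were tested on simulated data. The labels number the A53T libraries in DMSO 1 and 2, while a column of the table carries another number, so that library was used without a number.

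Members described in full were, in each complex, the 3 with the smallest moderated F-test p over the comparisons, measured members of isoform families, called members against the majority direction, and the 2 largest called rises and falls in each comparison. The values of 1 member are not reported here, and it is included in the counts and medians. Up to 3 genes of each pathway or marker list were eligible by smallest p. The members, lists and rules were chosen with earlier results of these data known. Names and promoters came from RefSeq tables of the build GRCr8, used for no other coordinates. Alternatives covered the pseudocount, the filter, rescaling, quantile normalization, the samples in the fit, replicate blocks and leaving out libraries.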

Additional observations from a re-analysis of the deposited data

Results flagged for a closer look

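For 23 members the response to 2.0 µM FK506 differed between A53T and vector cultures by the interaction term of the limma fit. The interaction, given in brackets as a difference of log2 fold changes, was positive for each. In complex I these included Ndufa9 (0.49), Ndufb3 (0.73), Ndufb4 (0.99), Ndufb8 (0.75), Ndufc2 (0.66), Ndufs3 (0.80), Ndufs4 (0.50), Ndufv1 (0.69) and Ndufv2 (0.77). In complex II the gene was Sdhd (0.39), and in complex III they were Cyc1 (0.60), Uqcrc1 (0.53), Uqcrc2 (0.38) and Uqcrfs1 (0.51). In complex IV they were Cox6a2 (1.40) and Cox7c (0.62), and in complex V Atp5a1 (0.32), Atp5b (0.51), Atp5c1 (0.70), Atp5g3 (0.81), Atp5l (0.83) and Atp5s (0.75). All members had a positive interaction, and the differences among the 23 were not tested. No call held in every fit with a library left out, and each rests on the 2 A53T libraries in DMSO.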

How the results depend on the processing

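No named value reversed under any alternative, and no count with a majority direction did. The count between the doses in vector cultures, with 2 higher and 2 lower, had no such direction, so it could not reverse. Its split changed, with 11 higher and 2 lower without replicate 1 of vector at 0.2 µM. It was 0 higher and 3 lower without replicate 2 of vector at 0.2 µM. Of 2630 alternative values for 94 calls of 30 named members, 2343 stayed called, 287 no longer passed and 0 reversed. The counts of members called are given in the order A53T in DMSO (5), vector at 0.2 µM (18), vector at 2.0 µM (25), the doses in vector cultures (4), A53T at 0.2 µM (70), A53T at 2.0 µM (11), both genotypes at 2.0 µM (10) and the interaction (23), and settings not named for a count kept it within 1.5 times. Pseudocounts of 0.25 and 4 and filters on low values moved none of them past that. Quantile normalization gave 9 for the first and 10 for the doses. Entering all 17 libraries as samples gave 8 for A53T in DMSO, 45 for vector at 0.2 µM, 19 for A53T at 2.0 µM, 19 between genotypes and 38 for the interaction. Fitting only the groups compared gave 65 for A53T in DMSO, 51 for vector at 0.2 µM, 3 for A53T at 2.0 µM and 3 between genotypes. With the 3 libraries lying away from their groups left out, there were 67, 70, 65, 39, 34, 58 and 70 in the order above, leaving out A53T at 0.2 µM. Leaving out 1 library at a time gave 1 to 16, 1 to 64, 15 to 36, 2 to 13, 70 to 71, 2 to 30, 4 to 28 and 1 to 47. The libraries of A53T at 0.2 µM were never left out together, so these fits could not test that sample. The causes were not tested.

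No clear pairing by replicate number was seen. Of 18 same-numbered pairs, 7 had deviations correlated above 0.1 (range -0.51 to 0.67), and a library correlated best with its own number in 9 of 36 cases. Same-numbered libraries of vector at 0.2 µM and A53T at 2.0 µM correlated at 0.67, 0.22 and 0.46. With so few libraries, this check cannot show that the samples were unpaired. A replicate block by title numbers, which leaves out the unnumbered A53T library in DMSO, gave 1 for A53T in DMSO, 7 for vector at 0.2 µM, 2 for A53T at 2.0 µM and 0 for the interaction. A replicate block by the numbers of the columns, chosen after seeing the data, gave 2 for A53T in DMSO and 7 for A53T at 2.0 µM. The groups of 1 to 3 samples and unknown raw depth limit the precision.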
